A study of Mus musculus with 6 samples.

Results

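LXR and cholesterol efflux genes were followed in macrophages grown from mouse bone marrow and homozygous for GRdim, a glucocorticoid receptor mutant with impaired dimerization. Rows whose symbol equals 1 of 8 chosen names (Nr1h2, Nr1h3, Abca1, Abcg1, Apoe, Pltp, Mylip and Lpcat3) were taken from a table of 23235 genes, and all 8 were found and had a test. The rule uses their symbols alone, though the set was drawn up with earlier results of these data known. RNA sequencing compared 2 groups of 3 samples. The cells were grown in medium conditioned by L-929 fibroblasts and then kept without serum. Cells of the LPS group received lipopolysaccharide (LPS), a molecule of the bacterial outer membrane that triggers inflammatory activation, for 6 h. Cells of the LPS+Dex group had 1 µM dexamethasone (Dex), a synthetic glucocorticoid, overnight before the same LPS treatment. Both groups carry the homozygous GRdim mutation and both received LPS, so the comparison asks how Dex changed these genes in LPS-treated mutant cells. Neither wild-type nor LPS-free samples were analysed here. Whether replicate samples derive from different mice or cultures is not stated in the labels.

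LXR alpha (gene Nr1h3) and LXR beta (gene Nr1h2) are nuclear receptors for oxidized sterols that bind DNA together with a retinoid X receptor, at pairs of AGGTCA-like half-sites in direct repeat. In cholesterol-loaded macrophages they switch on the transporters Abca1 and Abcg1, which pass cholesterol to lipoproteins outside the cell. Apolipoprotein E (Apoe) takes up exported lipid, phospholipid transfer protein (Pltp) remodels lipoproteins, Mylip encodes the ubiquitin ligase IDOL that sends lipoprotein receptors to degradation, and Lpcat3 puts polyunsaturated acyl chains into phospholipids.

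The promoters of Abca1, Mylip and Apoe are printed, of which the first pair fell with Dex and Apoe rose. Pltp and Lpcat3 also fell and Nr1h3 also rose. Their promoters and that of Nr1h2 held no match to the motifs described below and are not printed. Each sequence holds the 250 bases before the RefSeq start site (build GRCm38.p6), 5′ to 3′ on the transcribed sense strand. Those of Abca1 lie at chr4:53159896-53160145, minus strand, those of Mylip at chr13:45389492-45389741, plus strand, and those of Apoe, for the most upstream of its 3 start sites, at chr7:19699189-19699438, minus strand. Capitals mark matches to the motifs described after the sequences.
Abca1: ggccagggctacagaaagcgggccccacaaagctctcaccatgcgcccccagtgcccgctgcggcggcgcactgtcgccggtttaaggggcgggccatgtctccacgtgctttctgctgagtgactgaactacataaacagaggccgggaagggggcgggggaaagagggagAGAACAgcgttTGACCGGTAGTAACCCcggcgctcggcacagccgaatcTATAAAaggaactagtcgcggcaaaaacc
Mylip: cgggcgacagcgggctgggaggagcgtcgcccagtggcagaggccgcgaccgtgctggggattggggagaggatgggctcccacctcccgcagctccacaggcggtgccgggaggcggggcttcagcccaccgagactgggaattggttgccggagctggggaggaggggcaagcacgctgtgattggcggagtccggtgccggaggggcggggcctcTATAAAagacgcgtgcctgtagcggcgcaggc
Apoe: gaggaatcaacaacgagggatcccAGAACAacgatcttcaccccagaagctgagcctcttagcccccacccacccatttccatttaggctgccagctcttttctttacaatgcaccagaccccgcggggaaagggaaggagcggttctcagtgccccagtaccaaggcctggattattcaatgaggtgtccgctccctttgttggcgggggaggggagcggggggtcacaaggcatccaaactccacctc

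A direct repeat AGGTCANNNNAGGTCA, the arrangement known as DR4, was searched on both strands with up to 3 mismatches. Of the 8 genes, 7 had at least 1 window in the RefSeq table, and Abcg1 had none. Abca1 alone among them held such a match, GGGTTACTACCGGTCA on the minus strand of the printed sequence, at positions −67 to −52 before the start site, with 3 mismatches. Over all 32851 windows, 18.5% held one. The TATA motif TATAAA, searched on the printed strand, lay at −29 to −24 in Abca1 and at −32 to −27 in Mylip. Of all windows 7.59% held it, and among the other members it was found only before a downstream start site of Apoe. The half-site AGAACA of the glucocorticoid receptor element, searched on both strands, lay at −78 to −73 in Abca1 and at −226 to −221 in Apoe, against 16.1% of all windows with a match. The full element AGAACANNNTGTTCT, on both strands with up to 2 mismatches, was not among the letters of the 10 windows of the 7 genes, and 1.56% of all windows held it. These motifs were chosen after the values were seen, no matches of different motifs overlapped, and a match describes letters only.

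In the authors' deposited table, 5 of the 8 genes fell with Dex, 2 rose and 1 did not pass the threshold of a q-value under 0.05. The cholesterol transporter gene Abcg1 fell to 30.3% of its LPS level, Mylip to 47.9%, Abca1 to 63.1%, Pltp to 65.5% and Lpcat3 to 90.1%. Apoe rose 1.83-fold and the receptor gene Nr1h3 rose 1.25-fold, while the paralogous receptor gene Nr1h2 was not called. Changes were common in this comparison. Of 11755 tested genes, 42.9% were called, 17.7% higher and 25.2% lower. The median log2 fold change was −0.38 over the 8 genes and −0.011 over all tested genes. The share of members called, 87.5%, rests on 8 genes chosen with earlier results known, so it is a description.

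Levels are given in FPKM, the number of sequenced fragments per kilobase of transcript after scaling for library size, which lets genes be set side by side. The authors' table gives 1 FPKM value per gene and group and none per sample, so levels carry no SD and it cannot be said whether the samples of the groups overlapped. The error given with each log2 fold change is an implied standard error (SE), the absolute ratio of the change to the deposited test statistic. Its 95% interval assumes a normal error. The SE was close to 0.048 for genes with unlike changes, such as Abcg1, Mertk and Ube2d2. Whether it follows each gene's own spread between samples cannot be checked without values per sample. In bulk RNA, fewer cells that express a gene and less RNA per cell cannot be told apart.

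**Figure D1:**
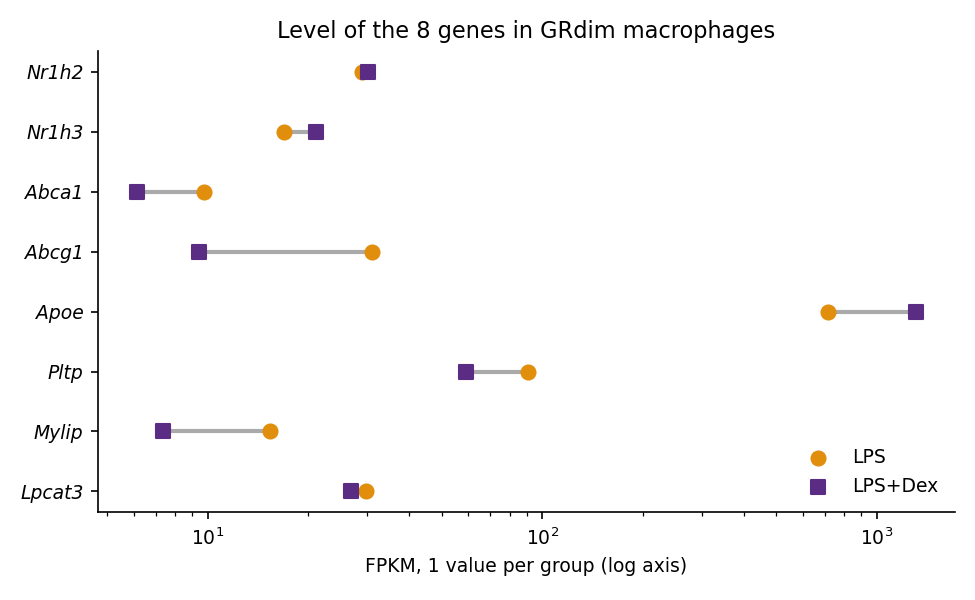
FPKM of the 8 genes (log axis), with a circle for LPS and a square for LPS+Dex, 1 value per gene and group. Apoe moved up from 715 to 1309 FPKM, Abcg1 moved down from 31.0 to 9.41 FPKM, and Nr1h2 stayed between 28.9 and 30.1 FPKM.

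Of the receptor genes, Nr1h3 rose and Nr1h2 was not called in the authors' deposited table. Nr1h3, encoding LXR alpha (chromosome 2, 91024217 to 91035273, mm9 as listed there), stood at 16.8 FPKM in LPS and 21.0 FPKM in LPS+Dex. It rose by log2 0.32 (SE 0.066, 95% interval 0.19 to 0.45, q = 6.2e-06). Nr1h2, encoding LXR beta (chromosome 7, 51805002 to 51809293), stood at 28.9 and 30.1 FPKM. Its change of log2 0.055 had an interval from −0.044 to 0.16 and was not called (q = 0.409). The intervals of the paralogs did not overlap, and their changes differed by log2 0.26, a difference for which no test of its own was run. Nr1h2 had the higher FPKM value of the pair in both groups, at 1.72 times Nr1h3 in LPS and 1.43 times in LPS+Dex, though these values have no spread. The summed FPKM of the pair was 45.8 in LPS and 51.1 in LPS+Dex.

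Both efflux transporter genes fell in the authors' deposited table, and Abcg1 by the larger amount. Abcg1, which exports cholesterol to HDL particles (chromosome 17, 31194638 to 31254926), stood at 31.0 FPKM in LPS and 9.41 FPKM in LPS+Dex. That is a 3.30-fold lower level (log2 −1.72, SE 0.048, 95% interval −1.81 to −1.63), and only 71 of 11745 tested genes with a fold change fell by more. Abca1, which loads lipid-poor apolipoprotein A-I (chromosome 4, 53043660 to 53172767), stood at 9.74 and 6.15 FPKM. It was 1.58-fold lower with Dex (log2 −0.66, SE 0.049, interval −0.76 to −0.57). The intervals of the transporters lay apart. The FPKM ratio of Abcg1 to Abca1 was 3.18 in LPS and 1.53 in LPS+Dex, and the summed level of the pair was 40.7 and 15.6 FPKM.

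The secreted lipid carriers went opposite ways in the authors' deposited table. Apoe, the apolipoprotein that macrophages secrete with exported lipid (chromosome 7, 20281592 to 20284515), was by far the most abundant of the 8 genes, at 715 FPKM in LPS and 1309 FPKM in LPS+Dex. It rose by log2 0.87 (SE 0.068, 95% interval 0.74 to 1.01), and 364 of 11745 tested genes rose by more. At the level of Apoe the running median change of all tested genes was −0.20. Pltp, encoding phospholipid transfer protein (chromosome 2, 164656229 to 164683208), stood at 90.4 FPKM in LPS and 59.2 FPKM in LPS+Dex. It was 1.53-fold lower (log2 −0.61, q = 0.00233), with the widest error of the 8 genes (SE 0.18, interval −0.96 to −0.26). The FPKM ratio of Apoe to Pltp was 7.91 in LPS and 22.1 in LPS+Dex.

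Pltp carries a limit of annotation. The table lists it under the same locus as Ctsa and Neurl2, and in GENCODE M21 the exons of Pltp share 495 bases with those of Ctsa on the opposite strand, 21% of the exon bases of Pltp. The libraries were stranded per the labels, but no source used here says whether the authors' quantification used strand, so the split of reads between them is uncertain. Ctsa, encoding the lysosomal protein cathepsin A, stood at 234 FPKM in LPS and 227 FPKM in LPS+Dex and was not called (q = 0.615). Neurl2 was not called either, at 2.64 and 1.95 FPKM with an implied SE of 1.44.

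Mylip and Lpcat3, which act within the cell, were both called lower in the authors' deposited table, by very different amounts. Mylip (chromosome 13, 45485110 to 45507309) stood at 15.4 FPKM in LPS and 7.37 FPKM in LPS+Dex. It was 2.09-fold lower (log2 −1.06, SE 0.060, 95% interval −1.18 to −0.94), and 262 of 11745 tested genes fell by more. Lpcat3 (chromosome 6, 124613121 to 124662196) stood at 29.7 and 26.7 FPKM, the smallest called change of the 8 (log2 −0.15, SE 0.057, interval −0.26 to −0.040, q = 0.0205). The call of Lpcat3 was lost when changes were centred on their median over genes of 1 FPKM or more (log2 −0.13, q = 0.0592). It was also lost when the trend on expression level was removed (log2 −0.094, q = 0.189), a setting in which 39.6% of 11745 genes were called, 18.4% higher and 21.2% lower. Lpcat3 shares its listed locus with Emg1, on the opposite strand, which was not called at 25.3 and 26.9 FPKM, and their exons share 38 bases in GENCODE M21.

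**Figure D2:**
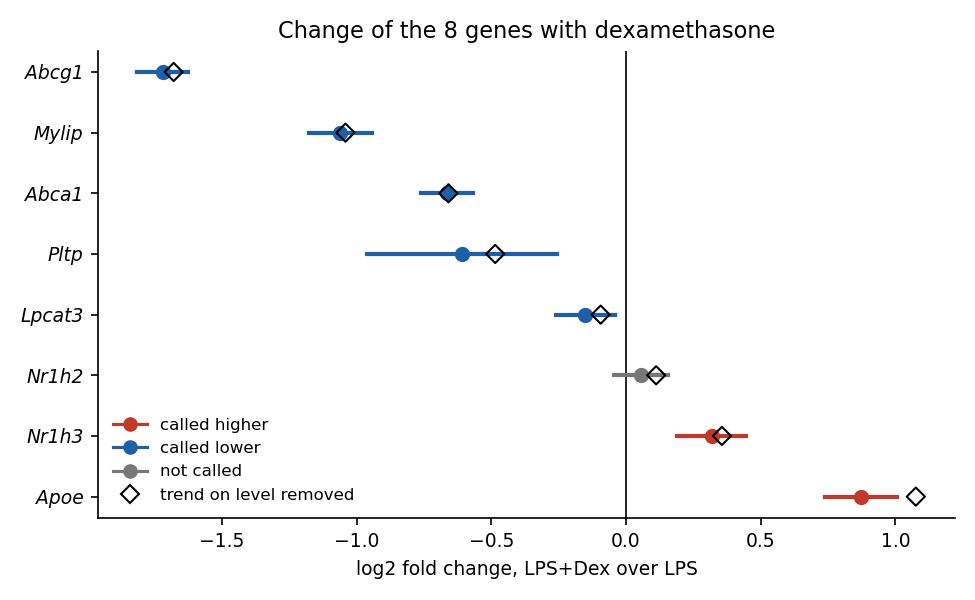
Log2 fold change of LPS+Dex over LPS for the 8 genes, with 95% intervals from the implied SE (bars) and the value after the trend on expression level was removed (open diamonds). Abcg1 at −1.72 and Mylip at −1.06 lie far to the left, Apoe at 0.87 far to the right, and the interval of Nr1h2 crosses 0.

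Set in order of their changes, the genes ran Abcg1, Mylip, Abca1, Pltp, Lpcat3, Nr1h2, Nr1h3 and Apoe, from the lowest to the highest. The 95% intervals of Abca1 and Pltp overlapped, as did those of Pltp and Lpcat3 and those of Lpcat3 and Nr1h2. Those of the other neighbours in this order lay apart. The order of levels shifted with Abcg1. In LPS it was the third most abundant of the 8, just above Lpcat3 and Nr1h2, and in LPS+Dex the sixth, just above Mylip. Apoe and Pltp held the top ranks in both groups, and Mylip and Abca1 the bottom ranks. Since levels have no spread of their own, it cannot be said which neighbouring levels differ. Without Pltp and Lpcat3, the members that share a listed locus, 3 of 6 genes were lower and 2 higher, a count chosen after seeing the data.

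**Figure D3:**
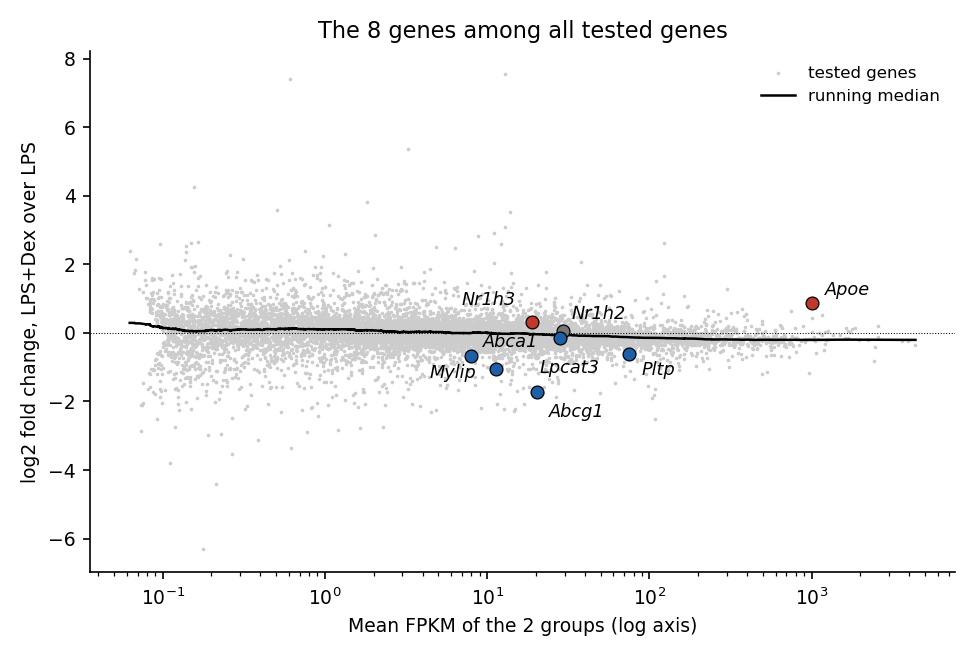
Log2 fold change of LPS+Dex over LPS against mean FPKM (log axis) for 11745 tested genes (grey), with their running median over 500 genes (line) and the 8 genes by call (red higher, blue lower, grey not called). The running median, taken over fewer genes at both ends, goes from 0.29 at the lowest levels to −0.20 at the highest, though not steadily. Apoe stands above it while Abcg1, Mylip, Abca1 and Pltp stand below it.

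Genes near the members on the chromosome, within 50 kb by the locus in the authors' deposited table, were counted as a description. Of 27 tested neighbours, 4 were higher, 2 lower and 21 not called, beside 42.9% called over all tested genes. Around Apoe lies a cluster of apolipoprotein genes. Apoc2, encoding the activator of lipoprotein lipase and 19.4 kb away, rose from 3.48 to 20.8 FPKM (log2 2.58, SE 0.13). Apoc1 and Apoc4, which lie between them, were too low for a test, with Apoc1 at 0.0333 and 0.0640 FPKM. On the other side of Apoe, Tomm40, encoding a mitochondrial import channel, was not called at 21.0 and 21.6 FPKM (q = 0.595). Farther out, at 17.5 kb, Pvrl2, encoding the adhesion molecule nectin-2, fell from 35.0 to 18.4 FPKM (log2 −0.93, SE 0.064).

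Other genes that LXR is known to induce did not move one way in the authors' deposited table. There, 17.7% of all tested genes were higher and 25.2% lower. Of 15 listed, 10 had a test, of which 4 rose, 3 fell and 3 did not pass, with a median log2 fold change of −0.0066. Apoc2 had the largest rise. Arl4c, encoding a small GTPase, fell from 2.86 to 0.686 FPKM (log2 −2.06, SE 0.10), the largest fall. Mertk, a receptor for dead cells, was not called at 30.1 and 29.3 FPKM (q = 0.539). The following were picked after their values were seen. Cd5l, encoding the secreted macrophage protein AIM, fell from 2.61 to 0.840 FPKM (log2 −1.64, SE 0.13). Srebf1, encoding the regulator of fatty acid synthesis SREBP1, was not called at 15.4 and 15.6 FPKM (q = 0.867). Its target Fasn, encoding fatty acid synthase, rose from 7.13 to 9.44 FPKM (log2 0.40, SE 0.049), whereas Acaca, encoding acetyl-CoA carboxylase, fell from 5.82 to 4.33 FPKM (log2 −0.43, SE 0.052). Lpl, encoding lipoprotein lipase, was marked HIDATA and had no test. Its listed values, 0 for LPS and 721 FPKM for LPS+Dex, are no measure of a difference, since a 0 in such a row can be a failed estimate.

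In the authors' deposited table, of 14 tested partners and coregulators of the LXRs, 3 rose, 7 fell and 4 were not called, with a median of −0.15. Lower calls also outnumbered higher ones over all tested genes (25.2% and 17.7%), and no test of the list against them was run. The dimer partner gene Rxra rose from 1.80 to 3.39 FPKM (log2 0.91, SE 0.070). Rxrb, chosen after its value was seen, was not called at 5.45 and 5.74 FPKM (q = 0.586), and Rxrg was listed at 0 in both groups. The largest fall was that of Tbl1x, a subunit gene of a nuclear corepressor complex, from 17.1 to 11.5 FPKM (log2 −0.58, SE 0.056). The corepressor gene Ncor1, also picked afterwards, fell from 13.3 to 11.3 FPKM (log2 −0.24, SE 0.060). Hdac3, the deacetylase gene of the same complex, was not called at 13.1 and 13.6 FPKM (q = 0.487).

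**Figure D4:**
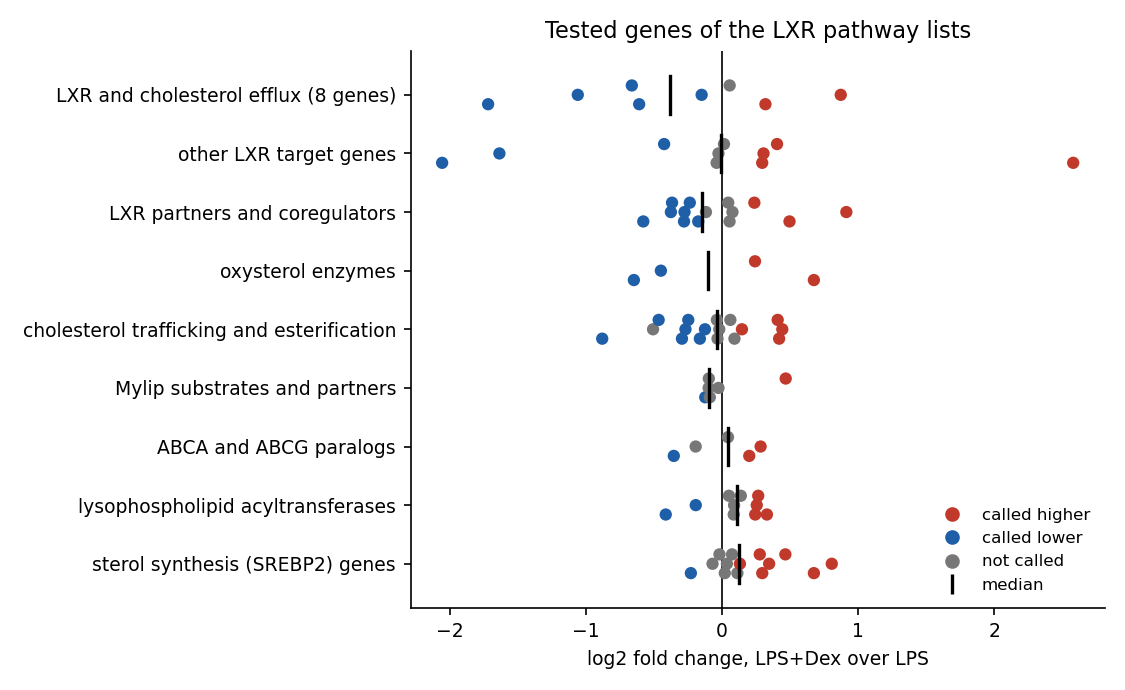
Log2 fold change of LPS+Dex over LPS for every tested gene of the 8 LXR and efflux genes and of 8 further lists (points, red higher, blue lower, grey not called; vertical position within a row has no meaning), with each list's median as a bar. The 8 genes have the lowest median, −0.38, and the medians of the other lists lie between −0.15 and 0.12. Members and lists were chosen with earlier results of these data known, so this order is a description.

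Of 9 genes that make or remove oxysterols and related sterol ligands, 4 had a test in the authors' deposited table. Among these 4, 2 rose and 2 fell (median −0.10), beside 17.7% higher and 25.2% lower over all tested genes. Ch25h, encoding cholesterol 25-hydroxylase, fell from 168 to 107 FPKM (log2 −0.65, SE 0.048). Cyp27a1, encoding sterol 27-hydroxylase, fell from 2.79 to 2.04 FPKM (log2 −0.45, SE 0.10). Both enzymes produce LXR ligands. Hsd3b7, an enzyme gene of bile acid synthesis, rose from 9.24 to 10.9 FPKM (log2 0.24, SE 0.073).

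Genes of cholesterol trafficking and esterification were mixed in the authors' deposited table, with 4 of 17 tested higher, 7 lower and 6 not passing. Their median was −0.039, and the shares over all tested genes were 17.7% higher and 25.2% lower. Soat1, whose enzyme stores cholesterol as esters, rose from 32.8 to 44.6 FPKM (log2 0.44, SE 0.049). Cav1, encoding the caveolar protein caveolin-1, fell from 42.3 to 23.0 FPKM (log2 −0.88, SE 0.062). Stard3, encoding a sterol carrier of late endosomes, was not called at 91.8 and 89.7 FPKM (q = 0.617). Scarb1, encoding the HDL receptor SR-BI and chosen after its value was seen, rose from 40.3 to 53.5 FPKM (log2 0.41, SE 0.050). With the trend on expression level removed, 5 of the 17 genes were higher and 4 lower.

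Of 6 tested substrates and partners of Mylip in the authors' deposited table, 1 was higher, 1 lower and 4 did not pass. Their median was −0.094, and among all tested genes 17.7% were higher and 25.2% lower. The substrate gene Lrp8, encoding a lipoprotein receptor, rose from 0.371 to 0.512 FPKM (log2 0.47, SE 0.16). Ube2d2, encoding a ubiquitin-conjugating enzyme, fell from 63.7 to 58.5 FPKM (log2 −0.12, SE 0.048), and its relative Ube2d3 was not called at 163 and 153 FPKM (q = 0.152). Neither the call of Lrp8 nor that of Ube2d2 held with the trend on expression level removed.

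Relatives of the transporters and of Lpcat3 moved both ways in the authors' deposited table. In it, 17.7% of all tested genes were higher and 25.2% lower. Of 16 other ABCA and ABCG genes, 5 had a test, of which 2 rose, 1 fell and 2 did not pass, with a median of 0.043. Abca3, a phospholipid transporter gene, rose from 12.2 to 14.8 FPKM (log2 0.28, SE 0.054). Abcg2, a drug efflux pump gene, fell from 2.48 to 1.94 FPKM (log2 −0.36, SE 0.095), and Abca2 was not called at 2.26 and 2.33 FPKM. Abca7, a close relative of Abca1 chosen after its value was seen, rose from 9.71 to 11.1 FPKM (log2 0.20, SE 0.050). It stood at about the level of Abca1 in LPS and above it in LPS+Dex. Of 12 acyltransferase genes of phospholipid synthesis and remodelling, 10 had a test, of which 4 rose, 2 fell and 4 did not pass, with a median of 0.11. Lpcat1 rose from 5.50 to 6.91 FPKM (log2 0.33, SE 0.077), Agpat3 fell from 18.6 to 14.0 FPKM (log2 −0.41, SE 0.051) and Agpat1 was not called at 33.8 and 35.0 FPKM (q = 0.456).

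The labelled cell type was checked on markers in the same table. Of 8 macrophage markers 7 had a test, of which 3 were higher, 1 lower and 3 not called. Beside this, 17.7% of all tested genes were higher and 25.2% lower. The summed level of the macrophage markers was 3421 FPKM in LPS and 3684 FPKM in LPS+Dex. Lyz2 was listed at 0 in both groups, marked HIDATA, and had no test. Summed levels in LPS and LPS+Dex were 56.6 and 63.0 FPKM for 6 neutrophil markers, most of it S100a8 and S100a9. Of 4 tested neutrophil markers, S100a8 rose (log2 0.57) while S100a9, Camp and Ngp fell, with a median of −0.46 over the 4. Sums were 3.30 and 0.815 FPKM for 7 dendritic cell markers, most of it Ccr7 (2.63 and 0.589 FPKM). Of these markers 2 were tested, Ccr7 and Xcr1, and both fell, with Cd209a at 0. For 6 T and NK cell markers the sums were 0.509 and 0.361 FPKM, nearly all of it Cd4, with Cd3g and Ncr1 at 0. They were 0.145 and 0.149 FPKM for 5 B cell markers and 2.33 and 2.68 FPKM for 6 stromal markers, nearly all of it Pdgfrb and Dcn. The part of the dendritic cell, neutrophil and stromal markers in the changes of the 8 genes was not tested.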

How the data were processed

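RNA was measured in 6 samples, 3 for each of 2 groups set by their titles. The submitters' processing notes name CASAVA, TopHat 1.4.1, Cufflinks 2.0.2 and build mm9, without roles. The gene annotation, the scaling of libraries and the way replicates were combined are not named in any source used here. The deposited table holds, per the file headers, 1 value per gene and group, read as FPKM, a test statistic (a score), a p-value and a q-value. With no counts in the table, library depth is unknown. FPKM depends on the assumed transcript length and on the library total.

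Log2 fold changes were recomputed from the deposited FPKM values and differed from the deposited ones by at most 1.2e-05. A gene was called when its status allowed a test and the deposited q was under 0.05. The q-value is a Benjamini-Hochberg adjustment over 11755 tested genes, as checked on the deposited p-values, and a q deposited as 0 is not printed. No source used here says how the authors' test estimates its error, and the spread between samples may be technical. No test over samples could be run.

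Alternatives were other thresholds and adjustments, pseudocounts of 1 and 0.1, a minimum of 1 FPKM, centring, and removal of a running median. That median was taken over 500 genes ordered by mean FPKM, fewer at both ends, and the implied SE was kept. Members and lists were chosen with earlier results of these data known. All members are named, and from each further list the strongest called rise, the strongest called fall and the uncalled gene with the highest mean, except that some genes so chosen are not reported here. Some genes, such as Mertk, Abcg5 and Abcg8, stand in 2 lists, and Ly6g was not analysed here under this symbol. Motif searches used windows of 250 bases from a RefSeq table, and overlaps of exons GENCODE M21, both on GRCm38, and no coordinate was converted to mm9. Scripts used Python 3.11.15, numpy 2.4.6, pandas 2.3.3, scipy 1.17.1 and matplotlib 3.10.9.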

Additional observations from a re-analysis of the deposited data

How the results depend on the processing

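Among the 8 genes the directions held with centring and with the trend on level removed. The other alternatives, such as thresholds, adjustments and pseudocounts, cannot change a direction, so they say nothing about it. The count of lower genes was 5, and it was 3 with Bonferroni adjustment, where Pltp and Lpcat3 dropped out, and 3 of 6 without the members that share a locus, an alternative chosen after seeing the data. The count of higher genes was 2, and 1 (Apoe) when at least a 1.5-fold change was asked. Lpcat3 was no longer called when centred (log2 −0.13) or with the trend on level removed (log2 −0.094). On the log2(FPKM + 1) scale the change was −1.62 for Abcg1, −0.97 for Mylip and −0.59 for Abca1. Over all genes, Bonferroni adjustment left 884 higher and 1540 lower. With the trend removed, 4 genes of cholesterol trafficking were lower, 0 sterol synthesis genes were lower, and of Mylip substrates and partners 0 were higher and 0 lower; with at least 1 FPKM, 0 of these were higher, since Lrp8 was left out. For the centred and trend-removed values, the cause was not tested. No paired analysis was possible because the table holds no value per sample, and leaving out single replicates was not run for the same reason. Depth is unknown, so no limit from counting error can be given.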

Other observations

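Genes of sterol synthesis, the pathway that SREBP2 controls when cells are short of cholesterol, were counted in the authors' deposited table. A test was available for 14, of which 7 were higher, 1 was lower and 6 did not pass, with a median log2 fold change of 0.12. Over all tested genes 17.7% were higher and 25.2% lower. Dhcr7, encoding the enzyme that makes cholesterol from 7-dehydrocholesterol, rose from 3.06 to 5.36 FPKM (log2 0.81, SE 0.073). Fdps, encoding farnesyl diphosphate synthase, was not called at 250.1 and 270.4 FPKM (q = 0.0837), and once the trend on level was taken out it was called higher (log2 0.30), and 10 of the 14 genes were then higher. Hmgcs1 and Fdft1 had no test. Both were listed at 0 in both groups, Fdft1 under the mark HIDATA, and such a 0 can be a failed estimate, so neither is a measure of level.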
